A study of Brassica napus with 12 samples.

Results

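The genes described here were raised at 29 °C in root tips of the oilseed rape variety Duplo and stayed near their 21 °C level in the variety Drakkar. They were chosen from the measured values. Levels are CPM, the reads counted on a gene per 1000000 reads counted on all genes of a library. A gene was taken when its lowest Duplo library at 29 °C had at least 1 CPM and at least 1.5 times its highest Duplo library at 21 °C, its Drakkar mean at 21 °C was at least 0.5 CPM, and its Drakkar mean at 29 °C lay between 0.8 and 1.25 times that at 21 °C. Of 101038 genes in the count tables, 42 met the rule. Since the rule used the temperature response of both varieties, these responses are given as a description, and no test of them is support for the choice.

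The 12 libraries came from root tips of 2 spring varieties, Drakkar and Duplo, whose seeds germinated on agar for 3 days and whose seedlings then grew for 7 days in a pouch-and-wick system at a constant 21 °C (optimal) or 29 °C (warm). At each temperature, each variety had 3 biological replicates, and each replicate pooled 18 seedlings from 3 experimental units. The labels give root tips of 1 cm and the methods of the study 0.5 cm. Each variety is a single genotype, so a difference between them belongs to these lines. Reads on genes numbered from 26554987 to 39934384 per library, so that 1 read was worth between 0.025 and 0.0377 CPM, and the precision that follows covers counting error only. Several counts rest on Duplo 29 °C replicate 3 and are also given without it. In bulk RNA, a change in the share of a cell type and a change in the RNA per cell cannot be told apart.

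A root tip holds dividing cells in the meristem, cells that lengthen behind it, and the first cells that differentiate. Among the latter are those of the endodermis, which lay down the lignin-rich Casparian strip with the help of CASP proteins, which mark the site, and of dirigent proteins, which guide the coupling of lignin units. *B. napus* is an allotetraploid, and most of its genes exist as closely similar A and C copies, between which the reads may have been divided wrongly, for each gene named. Of the 42 genes, 41 have no Arabidopsis counterpart in the parts of the study's gene tables used here and are given by identifier, without a role. The exception, BnaAnng00130D, is paired there with AT5G01740, described as an unknown gene that abiotic stress induces. The parts used were the study's Drakkar gene list and the expression clusters at hand, while the rule asks for a flat Drakkar response. They describe 1151 of the 40731 genes at the levels of the rule. Absence from them therefore does not mean that a gene lacks an Arabidopsis counterpart.

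The mean Duplo level at 29 °C ran from 1.28 to 87.7 CPM with a median of 7.42 CPM, and the mean Duplo level at 21 °C from 0.522 to 46.7 CPM with a median of 3.48 CPM. The ratio of Duplo means, 29 °C over 21 °C, lay between 1.63 and 3.67 with a median of 2.21. In Drakkar the same ratio lay between 0.873 and 1.25 with a median of 1.14, beside a median of 1.06 over the 40731 genes that reach the levels the rule asks for. A Drakkar ratio above 1 was found for 36 of the 42, beside 59.6% of those 40731 genes. Only 60.7% of those 40731 genes lay in the allowed range, and the rule used this ratio, so nothing is read from the difference. By level, 17 genes had a Duplo mean at 29 °C of at least 10 CPM, 17 had one under 5 CPM, and 16 had fewer than 50 reads in some library.

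**Figure D1:**
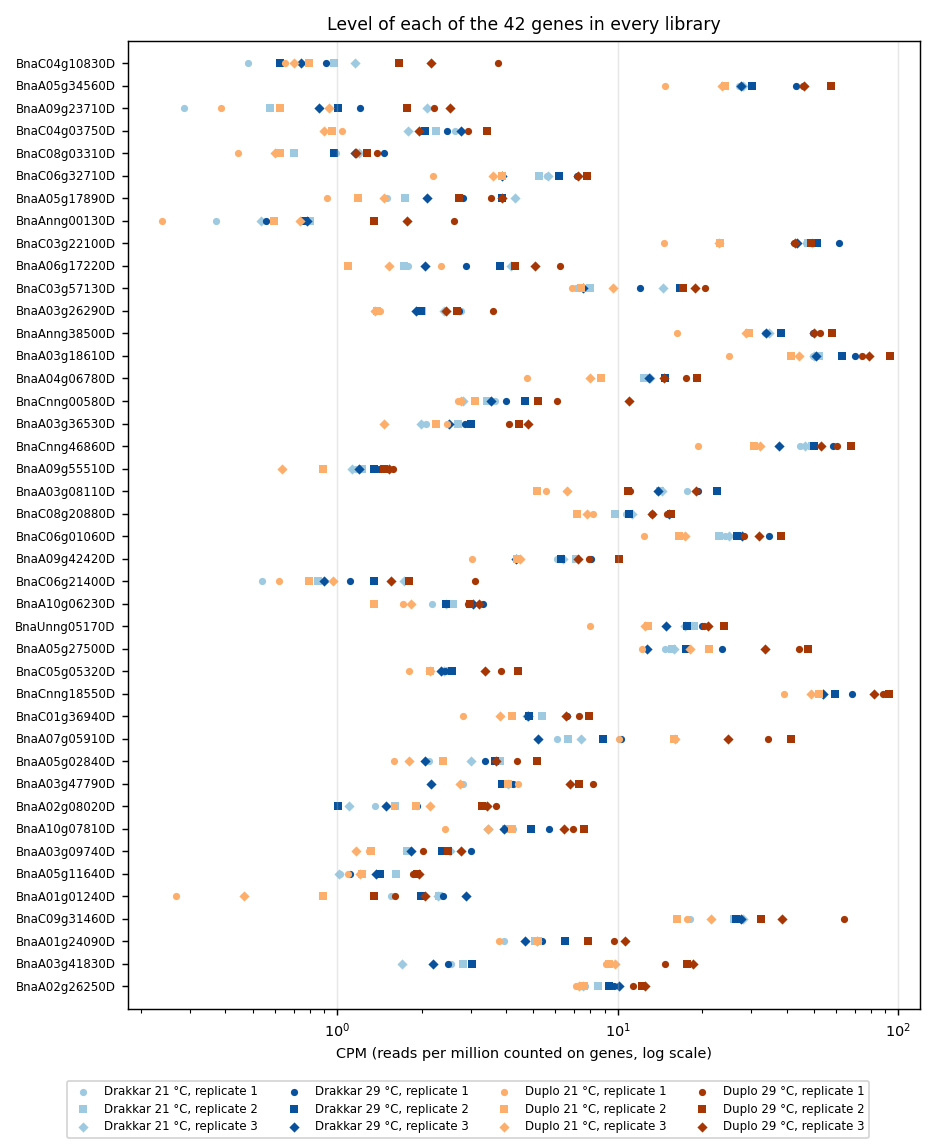
Level of each of the 42 genes in each of the 12 libraries (CPM, log scale), with colour for variety and temperature and symbol for the replicate, ordered from the highest to the lowest ratio of the lowest Duplo library at 29 °C to the highest at 21 °C. The dark orange symbols (Duplo 29 °C) lie right of the light orange ones (Duplo 21 °C) in every row, as the rule requires, while both blues (Drakkar) overlap in 40 of the 42 rows.

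The gap between the Duplo temperatures was widest for BnaC04g10830D. Its Duplo libraries had 0.652, 0.793 and 0.701 CPM when cool (21 °C) and 3.75, 1.66 and 2.17 CPM when warm (29 °C), and its Drakkar libraries 0.483, 0.977 and 1.16 CPM when cool and 0.917, 0.627 and 0.747 CPM when warm. The 3 Duplo libraries at 29 °C stood above the other 9, and the Drakkar temperatures overlapped. Its counts were low, from 21 reads in a Duplo library at 21 °C to 119 at 29 °C. BnaAnng00130D, the gene with an Arabidopsis counterpart, had the highest ratio of Duplo means (3.67). It had 0.237, 0.595 and 0.735 CPM in Duplo at 21 °C, 2.62, 1.36 and 1.78 CPM at 29 °C, and between 0.369 and 0.801 CPM in all 6 Drakkar libraries. Its Duplo level at 29 °C lay above every other library, but the 21 °C mean rests on as few as 8 reads in replicate 1.

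The other genes with the widest gaps differed in where Drakkar lay. For BnaA09g23710D (0.385, 0.628 and 0.935 CPM in cool and 2.21, 1.77 and 2.52 CPM in warm Duplo), Drakkar at 21 °C itself spread from 0.284 to 2.09 CPM, wider than its temperature difference. BnaA05g17890D and BnaA06g17220D showed the same spread, with Drakkar 21 °C replicate 3 at 4.29 and 4.17 CPM and the other Drakkar 21 °C replicates at most at 1.79 CPM. For these 3 genes the flat Drakkar ratio was an average over libraries that lay far apart. BnaC04g03750D was steadier, with 1.04, 0.958 and 0.902 CPM in Duplo at 21 °C, 2.93, 3.43 and 1.95 CPM at 29 °C, and 1.79 to 2.76 CPM in Drakkar at either temperature. Here warm Duplo overlapped Drakkar, and cool Duplo lay below all Drakkar libraries. BnaC06g32710D had 2.19, 3.87 and 3.61 CPM in Duplo at 21 °C and 7.79, 7.80 and 7.21 CPM at 29 °C, and BnaC08g03310D between 0.445 and 0.628 CPM in cool and between 1.17 and 1.39 CPM in warm Duplo. For both, Duplo at 21 °C lay below every Drakkar library.

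In the 5 genes with the highest warm Duplo level, the lowest library at 29 °C had between 1.57 and 1.90 times the highest at 21 °C. BnaCnng18550D, the highest, had 39.2, 52.0 and 48.9 CPM in Duplo at 21 °C, 88.4, 93.0 and 81.7 CPM at 29 °C, while cool Drakkar had 52.9, 52.8 and 54.1 CPM and warm Drakkar 68.5, 59.7 and 53.8 CPM. BnaA03g18610D had 25.0, 41.3 and 44.3 CPM in Duplo at 21 °C, 74.4, 93.4 and 78.9 CPM at 29 °C, and between 49.7 and 70.3 CPM in Drakkar. In both, the cool Duplo libraries were the lowest of the 12 and the warm Duplo libraries the highest. BnaCnng46860D had 19.3, 30.6 and 32.1 CPM in cool and 60.5, 67.8 and 53.1 CPM in warm Duplo libraries. The corresponding values of BnaAnng38500D were 16.2, 29.3 and 28.8 CPM and 52.7, 58.1 and 50.01 CPM. Those of BnaA05g34560D were 14.8, 24.1 and 23.5 CPM and 45.6, 57.5 and 46.0 CPM, against 27.1 to 43.2 CPM in Drakkar. In each of these 5 genes, Duplo 21 °C replicate 1 was the lowest of all 12 libraries. BnaC03g22100D had 14.6 to 23.2 CPM in Duplo at 21 °C, 42.6 to 48.9 CPM at 29 °C, and between 43.7 and 61.4 CPM in Drakkar. It differed from the 5 in that its warm mean was lower in Duplo (44.8 CPM) than in Drakkar (52.1 CPM). Its warm libraries overlapped between the varieties, as did those of BnaCnng46860D, for which Drakkar held between 37.7 and 58.7 CPM.

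The limit of 1.5 does not part distinct groups of genes. Just inside it were BnaA02g26250D with a ratio of the lowest Duplo library at 29 °C to the highest at 21 °C of 1.505, and BnaA03g41830D and BnaA01g24090D with 1.51. Just outside were BnaCnng20650D with 1.49 and BnaA03g27980D and BnaA03g45950D with 1.48. At the upper edge of the Drakkar range, BnaC08g03310D (Drakkar ratio 1.25), BnaC08g20880D and BnaA10g07810D (both 1.24) were inside and BnaC03g58190D and BnaA01g07050D (both 1.26) and BnaC07g07250D (1.27) outside. Membership also moved with the scaling of the libraries. With TMM factors in place of library totals the rule took 43 genes, of which 27 were among the 42.

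Of the 40731 genes at the levels of the rule, 372 (0.913%) had the required gap in Duplo. The Drakkar ratio of means was over 1.25 in 328 of them (88.2%) and over 1.5 in 268 (72.0%), whereas 42 (11.3%) lay in the range of the rule, as did 60.7% of all 40731 genes, and 2 below it (BnaC08g15830D and BnaC03g59080D). With the varieties exchanged, 208 genes met the same rule. Duplo 29 °C replicate 3 held the highest Duplo value for 204 (54.8%) of the 372 genes and for 12 of the 42, for which replicate 1 was highest in 11 and replicate 2 in 19. Relative to the Duplo 21 °C mean, the median over the 42 genes was 2.13, 2.27 and 2.02 in the 3 warm Duplo libraries, each of which the rule requires to be raised. In Drakkar the corresponding medians were 1.23, 1.12 and 0.957, and replicate 3 was the one below the 21 °C level.

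**Figure D2:**
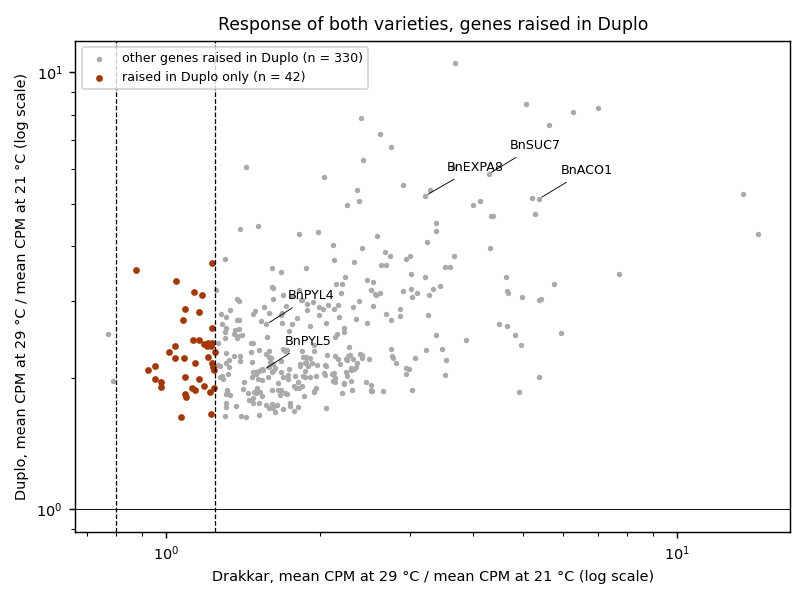
Ratio of the mean CPM at 29 °C to that at 21 °C in Duplo (vertical) and Drakkar (horizontal), both on log scales, for the 372 genes with the required gap in Duplo. Dashed lines mark the allowed Drakkar range of 0.8 to 1.25, which holds the 42 genes, and 328 of the other genes lie to its right, among them the labelled genes of the abscisic acid receptor (PYL), expansin (EXPA8), sucrose transporter (SUC7) and ACC oxidase (ACO1) families.

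The 42 genes were also set beside gene lists of the study. It chose these lists on the same libraries, so the counts are no independent evidence. Of the 28 genes in the counts for which it lists primers, 14 reached the levels of the rule and 6 had the required gap in Duplo. Of these 6 genes, 0 fell in the Drakkar range, beside 11.3% of all 372 genes with the gap, which is too few genes to read a difference from. The 6 genes included the abscisic acid receptor genes *BnPYL5* and *BnPYL4*, with Drakkar ratios of 1.55 and 1.57. They also included the expansin gene *BnEXPA8*, whose product loosens cell walls, with 3.21. The study's expression Cluster 1, of 1105 genes, held 114 with the Duplo gap, all 114 over the Drakkar range, beside 88.2% of the 372 genes. The study describes Cluster 1 as genes mostly induced in both varieties, so this count follows from how the cluster was made. Its Cluster 4, described as induced in Duplo and less so in Drakkar, was at hand only in part, with 75 genes. Of these, 25 had the Duplo gap, 24 of them over the Drakkar range and 1 in it. The 1 gene in the range was BnaAnng00130D, and whether others of the 42 belong to the rest of the cluster is not known here.

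The order of the varieties changed between the temperatures. At 21 °C the Duplo libraries lay entirely below those of Drakkar for 23 of the 42 genes, entirely above for 2, and overlapped them for 17. Among the 40731 genes at the levels of the rule, 17.1% lay below and 17.7% above. At 29 °C Duplo lay above Drakkar for 27 genes and below for 0, beside 12.2% and 16.5% of the same 40731 genes. The rule used these libraries, and nothing is read from the difference between these shares. Of the 23 genes that began below, 15 reached the Drakkar level and 8 passed it, whereas all 17 that began level ended above. The median ratio of the Duplo mean to the Drakkar mean was 0.728 at 21 °C and 1.40 at 29 °C. Within Drakkar, the temperatures overlapped for 40 genes and 29 °C lay above for BnaA02g26250D and BnaC06g01060D, that is for 2, where 23.8% of the 40731 genes did so. The rule limits the Drakkar ratio, so nothing is read from this difference either. Within Duplo, 29 °C lay above for all 42 by the rule, beside 17.7%.

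**Figure D3:**
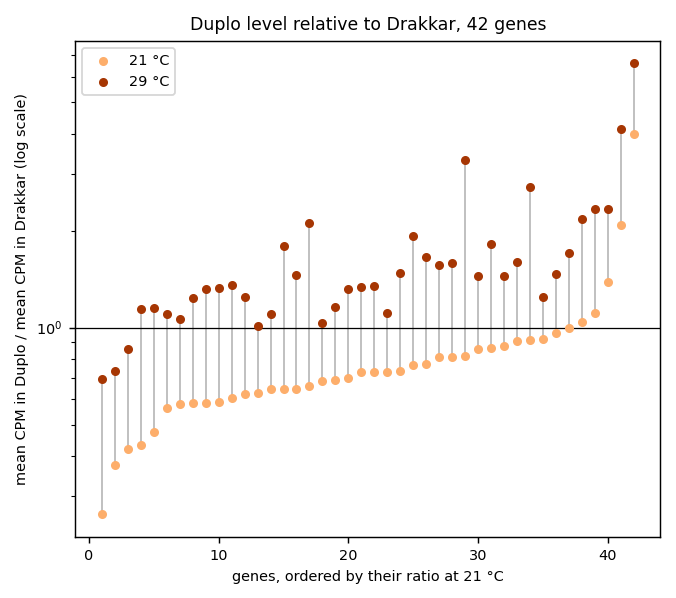
Ratio of the Duplo to the Drakkar mean CPM (log scale) at 21 °C (light) and 29 °C (dark) for the 42 genes, ordered by the ratio at 21 °C, with a grey line joining the values of a gene. Duplo was below Drakkar in mean level for 37 genes at 21 °C and for 3 at 29 °C (BnaC03g22100D, BnaA03g08110D and BnaA01g01240D).

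In the fit over all 12 libraries, edgeR's quasi-likelihood test with Benjamini-Hochberg adjustment over 55227 genes called 12 of the 42 genes lower in Duplo at 21 °C, where 9.34% of the genes tested were called lower, and 2 higher, where 8.99% were. The count of 12 became 5 without Duplo 21 °C replicate 1 and 6 without Drakkar 21 °C replicate 3. At 29 °C the same test called 15 higher in Duplo (10.4% of the genes tested). It called 0 lower (10.2%), with 0 at an unadjusted p under 0.05 (15.2%) and 0 with DESeq2 (10.6%), but 1, BnaA03g08110D, without Duplo 29 °C replicate 3. The genes of the following comparisons were chosen after their values were seen, and the rule used the same libraries. Their p-values are therefore a description and not a test of the difference. BnaA03g41830D held the largest excess in Duplo, with 9.07, 9.32 and 9.82 CPM in cool and 14.8, 17.6 and 18.6 CPM in warm libraries, against 1.70 to 3.03 CPM in Drakkar. Its log2 difference, Duplo minus Drakkar, was 2.01 (SE 0.19, edgeR adjusted p = 1.73e-05) at 21 °C and 2.79 (SE 0.19, edgeR adjusted p = 1.68e-06) at 29 °C, so that the varieties were apart at either temperature.

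BnaA07g05910D was the other gene above Drakkar at both temperatures, with 10.1, 15.8 and 16.0 CPM in Duplo grown at 21 °C, 34.2, 41.5 and 24.8 CPM at 29 °C, and between 5.19 and 10.3 CPM in Drakkar. Its highest Drakkar library lay just above its lowest Duplo library at 21 °C, but they came from different temperatures. The edgeR call at 21 °C was lost when any one of 4 libraries was left out (Drakkar 21 °C replicate 1 or 2, Duplo 21 °C replicate 2 or 3). The opposite case was BnaA01g01240D, with 0.267, 0.892 and 0.467 CPM in cool and 1.61, 1.36 and 2.06 CPM in warm Duplo, against 1.56 to 2.87 CPM in Drakkar. Duplo at 29 °C came up to the lower end of the Drakkar values, from as few as 9 reads at 21 °C. BnaA03g08110D behaved likewise at higher level, from 5.54, 5.15 and 6.61 CPM to 11.1, 10.8 and 19.0 CPM in Duplo against 13.9 to 22.6 CPM in Drakkar. At 21 °C its log2 difference, Duplo minus Drakkar, was -1.41 (SE 0.24, edgeR adjusted p = 0.00148), and at 29 °C its libraries overlapped. BnaA05g27500D began level and parted, with 12.2, 21.2 and 18.1 CPM in Duplo at 21 °C against 14.7 to 15.9 CPM in Drakkar, and 44.2, 47.9 and 33.4 CPM at 29 °C against 12.7 to 23.6 CPM.

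The tests of the temperature contrasts depended on the tool. In Duplo, edgeR called 0 of the 42 genes at an adjusted p under 0.05, where 0.00194% of 51673 genes tested were called higher, and all 42 had an unadjusted p under 0.05, as did 9.88% of the genes. DESeq2 called 37 (2.25% of the genes tested), edgeR without Duplo 29 °C replicate 3 called 10 (0.78%), and edgeR in 1 fit of all 12 libraries called 33 (1.48%). The adjusted p in edgeR ranged from 0.0888 to 0.146 over the 42 genes. Their log2 fold changes in Duplo lay between 0.66 and 1.85 with a median of 1.11, beside 0.04 over all genes tested, and 28 exceeded 1. For BnaCnng18550D the log2 fold change was 0.87 (SE 0.13, edgeR adjusted p = 0.0888) and for BnaC04g10830D 1.78 (SE 0.35, edgeR adjusted p = 0.101). The larger change thus came with the larger error.

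In Drakkar, edgeR called 0 of the 42 genes higher (3.85% of 52709 genes tested) and 0 lower (2.49%). There were 0 at an unadjusted p under 0.05 (14.9% higher and 13.5% lower) and 0 with DESeq2 (6.48% higher and 5.93% lower). The log2 fold changes lay between -0.31 and 0.21 with a median of 0.08. A missed threshold does not show that the genes did not respond, and the SE of 0.64 for BnaA09g23710D left room for a change of either sign. For the interaction of variety and temperature, edgeR called 0 genes (0% of 55227), with 41 at an unadjusted p under 0.05 (3.26%) and a lowest adjusted p of 0.499. DESeq2 called 4 (0.12%), BnaCnng18550D, BnaC03g22100D, BnaCnng46860D and BnaUnng05170D. Without Duplo 29 °C replicate 3, edgeR called 1 (0.119%), BnaC04g03750D.

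Some of the genes shared a pattern over the replicates, without a sharp division from the rest. Duplo 21 °C replicate 1 was the lowest Duplo library at 21 °C for 31 of the 42 genes, and for 21 of them it was under 0.75 of the mean of replicates 2 and 3, as in 7.82% of the 40731 genes at the levels of the rule. These 21 genes were set apart after their values were seen, so the following is a description without a test. For each gene, the mean of its group was subtracted from log2(CPM + 0.5). The deviations of the 21 genes had a mean pairwise Pearson correlation of 0.56 over the 12 libraries and of 0.38 over the 9 libraries without Duplo 21 °C, the group that chose them. The other 21 genes had 0.03 and 0.06, and all 40731 genes 0.01 and 0.01. The cut did not part the genes cleanly. BnaAnng00130D and BnaA01g01240D, both among the 21, correlated with the mean of the 21 genes at 0.42 and 0.40 over the 12 libraries. Over the 9 libraries they did so at -0.08 and -0.11. BnaCnng18550D, one of the others, correlated with this mean at 0.93 over the 12 libraries and at 0.86 over the 9. The libraries are shared by all genes, so these values do not come from independent samples. In the 21 genes the median deviation was -0.42, 0.21 and 0.19 in the 3 Duplo 21 °C libraries and 0.23, 0.02 and -0.24 in the 3 Drakkar 29 °C libraries.

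**Figure D4:**
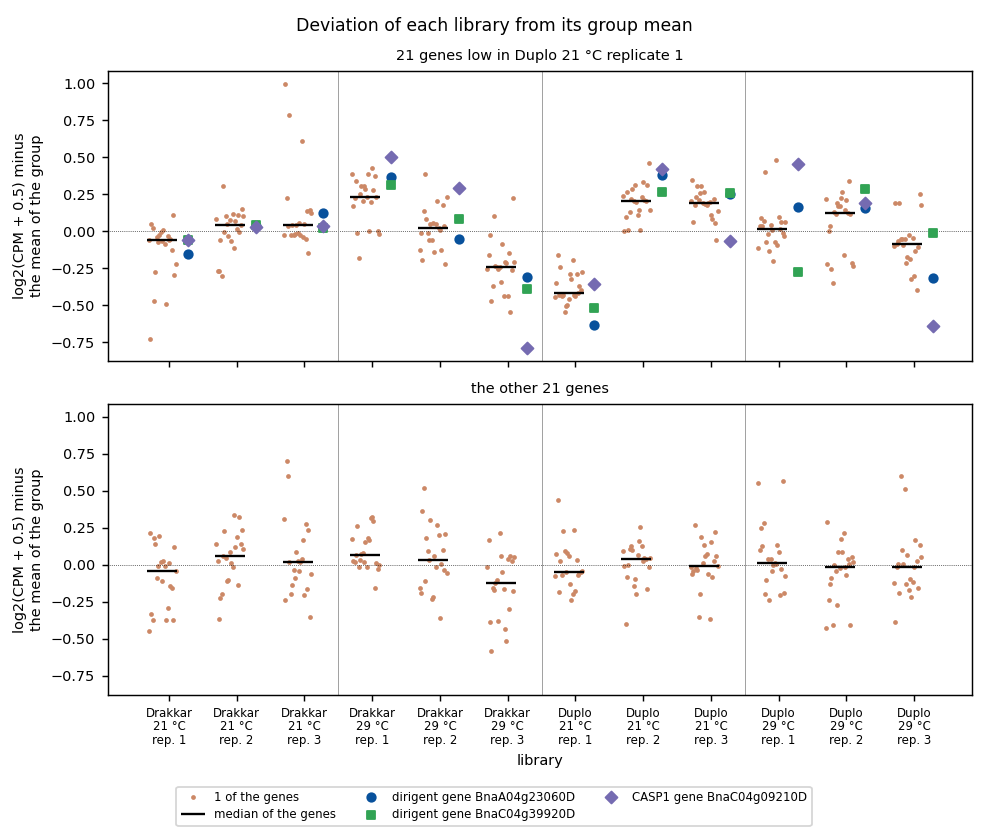
Deviation of each library from the mean of its group, in log2(CPM + 0.5), for the 21 genes that were low in Duplo 21 °C replicate 1 (top) and the other 21 genes (bottom), with 1 point per gene and a bar at the median. Blue, green and purple symbols show 2 dirigent genes and a CASP1 gene, which are not among the 42. The lowest median is -0.42 in the top panel (Duplo 21 °C replicate 1) and -0.13 in the bottom panel (Drakkar 29 °C replicate 3).

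The genes whose deviations were most like the mean of these 21 were looked up among all 40731. A correlation above 0.8 over the 12 libraries was found for 125 genes (0.307%), of which 12 were among the 21 and BnaCnng18550D was the 1 gene among the other 21. Since a Duplo 21 °C library chose the 21 genes, which also make up the mean, these counts follow in part from the choice. The gene with the highest correlation of all, at 0.95, was not one of the 42. It was BnaA04g23060D, a dirigent gene paired with AT2G39430, an endodermis marker in Arabidopsis. It had 3.11, 6.81 and 6.18 CPM in Duplo at 21 °C, 16.1, 16.0 and 11.4 CPM in Duplo at 29 °C, while cool Drakkar had 7.89, 9.06 and 9.69 CPM and warm Drakkar 15.7, 11.7 and 9.70 CPM. Its Duplo gap met the rule (1.67), but its Drakkar ratio of 1.39 lay outside. A pair of genes for another dirigent protein, AT1G07730, also followed the pattern, BnaC04g39920D at 0.86 and BnaA04g16600D at 0.84. Both had the Duplo gap, and their Drakkar ratios of 1.38 and 1.31 lay outside the range. The tables used here describe 1151 of the 40731 genes, 6 of them above 0.8. The other 3 of these were not dirigent genes and lacked the Duplo gap. They were BnaC04g56700D of the pollen Ole e 1 and extensin family (0.86), BnaC06g17230D of a solute carrier family (0.85) and the *SAUR32* gene BnaC04g00740D, of an auxin-responsive family (0.83), and their Drakkar ratios of 2.56, 0.396 and 2.49 lay on both sides of the range. Over the 9 libraries without Duplo 21 °C, the 3 dirigent genes had 0.90, 0.71 and 0.67, and these other 3 genes 0.64, 0.71 and 0.74. A further dirigent gene, BnaA04g03790D, had a correlation of 0.32 over the 12 libraries and of 0.06 over the 9, so the dirigent genes did not all share the pattern. Of the 42 genes, BnaC03g22100D (0.95), BnaCnng46860D (0.93) and BnaAnng38500D (0.93) were most like the mean over the 12 libraries, and they contributed to it. Over the 9 libraries the highest of the 42 was BnaA03g47790D, one of the other 21, at 0.93, against 0.25 over the 12.

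The *CASP1* gene BnaC04g09210D, the other endodermis marker at these levels, had a correlation of 0.70 with the mean of the 21 genes (0.78 without Duplo 21 °C). It had 2.99, 5.49 and 3.77 CPM in cool and 8.83, 7.31 and 3.87 CPM in warm Duplo, 3.87 CPM being under the highest cool value, and in Drakkar between 8.32 and 8.91 CPM at 21 °C and between 1.94 and 5.47 CPM at 29 °C, without overlap. Its replicates thus moved with those of the 21 genes while its temperature response in Drakkar did not. The third matched marker, the *CASP5* gene BnaA10g18830D, was at 0 in all 6 libraries at 21 °C and at most 0.491 CPM at 29 °C. Of the 9 Arabidopsis endodermis loci looked for, these were the 3 genes matched, and none of the root hair, meristem and green tissue loci was matched in the tables used here, so the tissue could be checked no further. The part of the share of endodermis in the level of the 42 genes was not tested.

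The 42 genes were spread over the genome. By identifier, 26 lay on the A and 15 on the C subgenome, and 1 on neither by name, while 48.8% of the 40731 genes lay on A and 51.0% on C. Chromosome A03 held 7 and A05 held 5. No members were neighbours, the closest pair on a chromosome (BnaA10g06230D and BnaA10g07810D) being 158 identifiers apart. No sequence is shown, since the sources used here pair none with these genes.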

How the data were processed

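RNA from 12 root tip libraries was sequenced by the authors from a strand-specific poly(A) preparation and aligned to the rapeseed genome with HISAT2. The authors deposited the raw count of reads per gene for each variety, without normalization. The counting program and its strand setting are not given in the sources used here. The deposited tables of DESeq2 fold changes and p-values were not used. A line without a gene name, with at most 2 reads per library (at most 6.55e-06%), was left out.

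The members and gene lists were chosen with earlier results of these data known. A gene that the rule leaves out by name is not reported here. CPM was the count over the library total. Fits used edgeR 4.0.16 in R 4.3.3 (filterByExpr, TMM, glmQLFit, glmQLFTest), within each variety for temperature and over all 12 libraries for variety and interaction, with Benjamini-Hochberg adjustment over all genes tested and a threshold of 0.05. Alternatives were DESeq2 1.42.0, other scaling factors and filters, 1 fit of all 12 libraries, a replicate block, other limits of the rule, and each library left out. Fits were tested on simulated data. The p-values measure the spread between pooled replicates. The SE given with an edgeR value was worked back from the test, as the absolute log2 fold change over the square root of the F statistic.

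Genes were named by rule: the 10 widest Duplo gaps, the 5 highest Duplo levels at 29 °C, genes with a name or an Arabidopsis locus in the study's tables or with an entry in a RefSeq table (Da-Ae assembly, whose symbol for 3 genes only repeats the identifier), the 3 on each side of the limits, and neighbours. Other names were chosen after their values were seen.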

Additional observations from a re-analysis of the deposited data

How the results depend on the processing

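The rule took 434 genes at a Duplo fold of 1.2 and 1 at a fold of 2, and 24 with at least 5 CPM in the lowest warm Duplo library. With the Drakkar range narrowed at both ends, from 0.9 to its inverse, it took 16. With the range widened at both ends, from the inverse of 1.5 to 1.5, it took 104. With RLE factors it took 50 genes, 29 of them among the 42. Leaving out a library gave 37 to 217 genes, with 217 without Duplo 29 °C replicate 3, 101 without its replicate 2 and 70 without its replicate 1, 87, 120 and 93 without Duplo 21 °C replicates 1, 2 and 3. A missing Duplo library loosens the rule by construction. In Duplo, DESeq2 called 37 of the 42 genes and 1 fit of all 12 libraries 33 (1.48% of its genes), and for the interaction DESeq2 called 4. Leaving out single libraries gave 0 to 10 calls in Duplo, 0 in Drakkar, 0 to 1 for the interaction, 5 to 14 genes lower and 1 to 2 higher in Duplo at 21 °C, and 10 to 19 higher and 0 to 1 lower in Duplo at 29 °C. The median log2 fold change lay between 0.99 (without Duplo 21 °C replicate 1) and 1.19 in Duplo and between 0.01 and 0.15 in Drakkar. The causes were not tested. With the replicate number as a block, 0 genes were called in Duplo, and the median log2 fold change was 1.14 there and 0.10 in Drakkar. Samples of a variety with the same number showed little common deviation (correlations from -0.24 to 0.10). This does not settle whether the numbers mark shared experiments. No named value changed its sign. Low counts, with under 50 reads in some library for 16 genes, limit what can be said of single genes.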
